A study of Arabidopsis thaliana with 12 samples.

Results

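*DOG1* (DELAY OF GERMINATION 1, *AT5G45830*) and the DOG1-like gene *AT4G18650* were followed on all 12 arrays and between all 6 pairs of genotypes. They were chosen by name, with earlier results of these data known, each with the single probe set that measures it. They are 2 of the 22810 probe sets deposited. *DOG1* is on the study's list of genes called on these samples, so its direction here is not independent evidence. A probe set is the group of short probes on an Affymetrix ATH1 array that is summed up into 1 value for a transcript. Both passed the filter on low values, which kept 64.2% of the probe sets for testing. The RNA was taken from whole siliques, the pods of *Arabidopsis thaliana*, with their ripening seeds at 18 to 19 days after pollination, on plants grown in long days. The wild type was the L*er* (Landsberg *erecta*) ecotype. The mutants *rdo2-1* (labelled rdo2), *hub1-2* (labelled rdo4) and *rdo3*, all isolated for reduced dormancy, were in the same background, and each genotype had 3 arrays from 3 samples that the study describes as independent biological replicates. *rdo2-1* carries a short deletion in the gene of the transcription elongation factor TFIIS that removes its zinc finger, *hub1-2* is a mutant of the ubiquitin ligase HUB1 that acts on histone H2B, and which gene is mutated in *rdo3* is not stated by the sources used here. Each mutant is represented by 1 allele.

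*DOG1* is a central gene of seed dormancy, the state in which a viable seed does not germinate although conditions are favourable. Its transcript accumulates in the seed during maturation, and the amount of DOG1 protein in freshly harvested seeds goes with the depth of dormancy. The protein binds phosphatases that otherwise dampen the response to abscisic acid, the hormone that induces dormancy. *AT4G18650* belongs to the small family of DOG1-like genes, which share a domain with the TGA transcription factors. HUB1 and TFIIS both assist RNA polymerase II on chromatin, and the array comparison asked how their loss changes transcript levels at the end of seed maturation, when dormancy is laid down.

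All levels are linear intensities, in arbitrary units, after GC-RMA, a method that corrects background by probe sequence and normalizes between arrays. A mean is given ± SD over the 3 arrays of a genotype (n = 3). Array medians over all probe sets lay between 11.6 and 12.1. *DOG1* lay between 17.0 and 131 times the median of its array, and *AT4G18650* between 99.6 and 186 times, so both were well above the typical probe set in every sample. The table of genes lists several transcripts of *DOG1*, which the single value of a probe set cannot tell apart. The siliques were measured whole, so that fewer cells with a transcript and less transcript per cell cannot be told apart.

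*DOG1* was highest in L*er*, followed by *rdo3*, *rdo2-1* and *hub1-2*. In L*er* its intensity was 1025, 1538 and 1016 in replicates 1 to 3. In *rdo3* it was 922, 999 and 1042, and in *rdo2-1* it was 712, 521 and 599. All 3 *hub1-2* arrays were low and nearly equal, at 203, 204 and 206. The highest *rdo2-1* array therefore lay below the lowest array of L*er* and of *rdo3*, and every *hub1-2* array lay below every other array. The *rdo3* and L*er* arrays overlapped, with only L*er* replicate 2 standing well above the rest.

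The means of *DOG1* were 1193 ± 299 in L*er*, 988 ± 60.7 in *rdo3*, 611 ± 96.0 in *rdo2-1* and 204 ± 1.75 in *hub1-2*. Over the 4 genotypes the differences were larger than the spread between replicates in an exact permutation test of the F statistic of log2 intensity (p = 0.000195, 12 arrays). Without the *hub1-2* arrays, a choice made after the values were seen, the exact permutation test over the other 3 genotypes gave p = 0.0107. Pairs of 3 arrays cannot go below an exact p of 0.10, so pairs were compared with limma fitted over all kept probe sets. An adjusted p (Benjamini-Hochberg, over all kept probe sets) under 0.01 is termed a call.

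**Figure D1:**
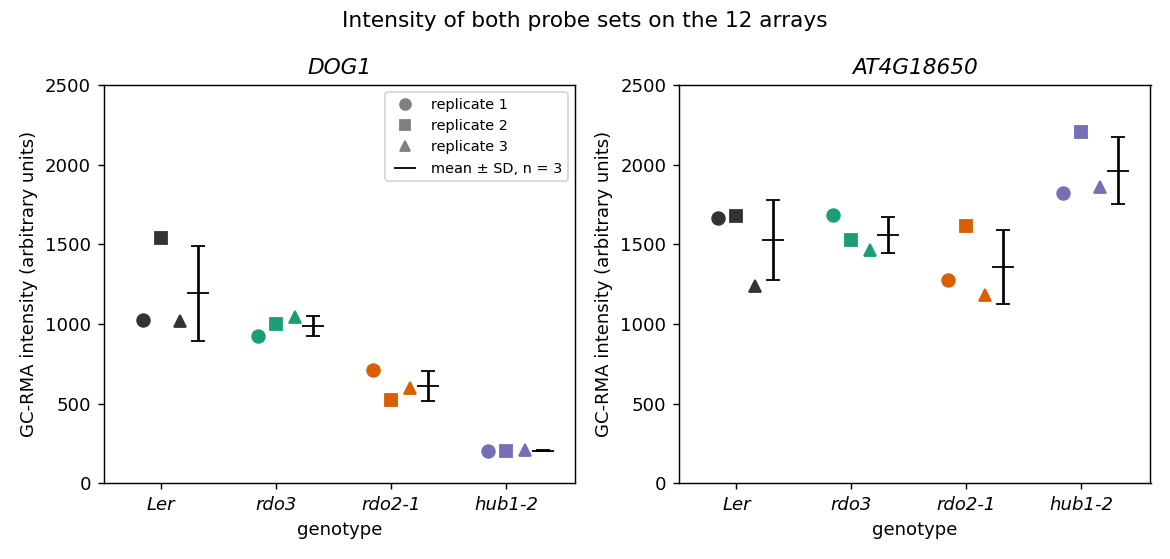
GC-RMA intensity (arbitrary units, linear axis from 0) of *DOG1* and *AT4G18650* by genotype. Each symbol is 1 array, with its shape giving the replicate number, and the bars are the mean ± SD of 3 arrays. *DOG1* steps down from L*er* and *rdo3* to *rdo2-1* and then to *hub1-2*, where the 3 arrays lie between 203 and 206, while *AT4G18650* is highest in *hub1-2*.

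*DOG1* was called in 3 of the 6 comparisons, those with *hub1-2*, and its values did not overlap in 5 of the 6. Against L*er*, *DOG1* fell by 2.52 on the log2 scale in *hub1-2* (standard error 0.16, 95% interval -2.89 to -2.14, adjusted p = 9.9e-05). The L*er* mean was 5.84 times the *hub1-2* mean. In this comparison 9.45% of the probe sets tested were called, and the values of the 2 genotypes did not overlap for 43.0%. *DOG1* had the 37th lowest log2 fold change, and 99.7% of probe sets had a smaller absolute log2 fold change. With each of the 6 arrays left out in turn the fold change stayed between -2.62 and -2.32 on the log2 scale and was called each time.

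Against *rdo3*, *DOG1* was also lower in *hub1-2*, the log2 fold change being -2.27 (standard error 0.094, 95% interval -2.49 to -2.06, adjusted p = 9.2e-06). By p it was 8th among all kept probe sets. Here 11.2% of probe sets were called and 43.8% had values that did not overlap. Against *rdo2-1*, the log2 fold change of *DOG1* in *hub1-2* was -1.57 (standard error 0.14, 95% interval -1.89 to -1.24, adjusted p = 1.6e-04), and the *rdo2-1* mean was 2.99 times the *hub1-2* mean. Of all probe sets, 19.6% were called between these mutants, and 52.4% had values that did not overlap. *DOG1* was thus lower in *hub1-2* than in either of the other reduced dormancy mutants, and not only than in the wild type.

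The *DOG1* values of *rdo2-1* lay below those of L*er*, at a log2 fold change of -0.95 (standard error 0.19, 95% interval -1.38 to -0.52, adjusted p = 0.035), which misses the threshold. The L*er* mean was 1.95 times the *rdo2-1* mean. The values did not overlap, as for 26.0% of all probe sets, and 0.143% were called. CyberT, the regularized test that the study used, gave an adjusted p of 0.0024 for the same values, and a fit over all 12 arrays gave 0.0052, both of which pass. These tests call more in general, 3.36% of probe sets with CyberT and 1.84% with 12 arrays. The fold change of *DOG1* was -0.75 without L*er* replicate 2, the highest array, and adjusted p-values ran from 0.048 to 0.13 with each array left out.

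Between *rdo2-1* and *rdo3*, *DOG1* was lower in value in *rdo2-1*, the log2 fold change being -0.70 (standard error 0.14, 95% interval -1.02 to -0.38, adjusted p = 0.041). It was not called by limma, which called 0.252% of probe sets here, whereas CyberT, which called 2.80%, called it (adjusted p = 0.0095). The values did not overlap, as for 26.3% of probe sets. With each array left out in turn, limma adjusted p-values ran from 0.061 to 0.16. The only neighbours in the order of *DOG1* levels with overlapping values were *rdo3* and L*er*. Their log2 fold change was -0.25 (standard error 0.17, 95% interval -0.62 to 0.13, adjusted p = 0.65), and it was -0.05 without L*er* replicate 2. This interval includes both no change and a fall of 0.62 on the log2 scale. Between these genotypes 0.0205% of probe sets were called and 16.6% did not overlap.

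The spread of *DOG1* between replicates was smallest in *hub1-2*. Its SD of log2 intensity was 0.34 in L*er*, 0.23 in *rdo2-1*, 0.089 in *rdo3* and 0.012 in *hub1-2*. The 1233 probe sets with a mean log2 intensity over all arrays within 0.5 of that of *DOG1* were taken for comparison. Of these, 89.5% had a smaller SD than *DOG1* in L*er* and 1.70% had a smaller SD in *hub1-2*. The mean log2 intensity of *DOG1* was 10.19 in L*er* and 7.67 in *hub1-2*. The probe sets were therefore not matched to its level within these genotypes. An SD over 3 arrays is itself imprecise, and the difference between the SDs of *DOG1* was not tested.

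**Figure D2:**
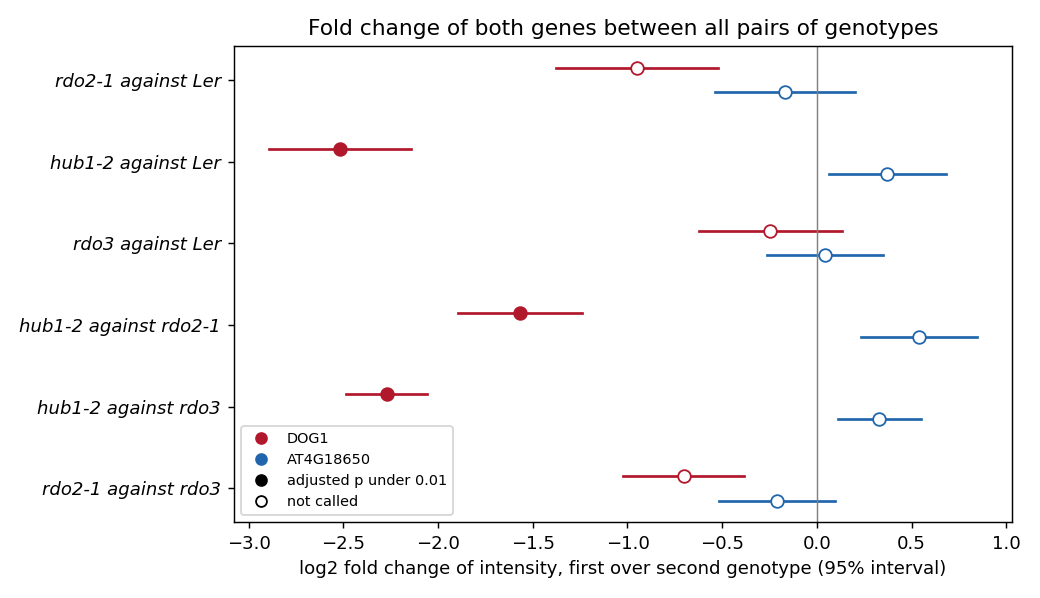
Log2 fold change of intensity (horizontal axis, first over second genotype) of *DOG1* and *AT4G18650* in the 6 pairs of genotypes, with 95% intervals from limma. Filled points have an adjusted p under 0.01, and these are the 3 comparisons of *DOG1* with *hub1-2*, at -2.52, -1.57 and -2.27.

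*AT4G18650* had a narrower range of levels and a different order, with *hub1-2* highest, followed by *rdo3*, L*er* and *rdo2-1*. In L*er* its intensity was 1667, 1676 and 1237 in replicates 1 to 3, and in *rdo2-1* it was 1274, 1617 and 1180.1. In *rdo3* it was 1684, 1526 and 1464. The *hub1-2* arrays were at 1822, 2204 and 1860.2, all above the highest array of any other genotype, which was *rdo3* replicate 1. The arrays of the other 3 genotypes overlapped with each other.

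The means of *AT4G18650* were 1527 ± 251 in L*er*, 1558 ± 113 in *rdo3*, 1357 ± 230.3 in *rdo2-1* and 1962 ± 210.3 in *hub1-2*. The exact permutation test over the 4 genotypes gave p = 0.0508, so the differences did not pass 0.05, and without the *hub1-2* arrays the exact permutation test gave p = 0.521. With each array centred on its median the exact permutation p was 0.167, and with ranks in place of log2 values it was 0.0382. For *DOG1* the exact permutation p after centring was 0.000325.

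*AT4G18650* was called in none of the 6 comparisons by limma and in 1 by CyberT. It was higher in value in *hub1-2* than in *rdo2-1*, the log2 fold change being 0.54 (standard error 0.14, 95% interval 0.23 to 0.85, adjusted p = 0.013), and this is the comparison that CyberT called (adjusted p = 0.0017). Of all probe sets, limma called 19.6% and CyberT 26.8% there, so a call is common in this comparison. CyberT called 16.9% in *hub1-2* against L*er*, 18.8% in *hub1-2* against *rdo3* and 0.983% in *rdo3* against L*er*. With all 12 arrays in the limma fit, which called 22.6%, *AT4G18650* passed in *hub1-2* against *rdo2-1* (adjusted p = 0.0099). Without *rdo2-1* replicate 2, the highest *rdo2-1* array, the value was 0.67 and limma called it (adjusted p = 0.0034). Against *rdo3*, the log2 fold change of *AT4G18650* in *hub1-2* was 0.33 (standard error 0.096, 95% interval 0.11 to 0.55, adjusted p = 0.037). Against L*er* it was 0.37 (standard error 0.14, 95% interval 0.063 to 0.68, adjusted p = 0.080), and 0.23 without L*er* replicate 3, the lowest L*er* array. In these comparisons the *hub1-2* values did not overlap with the others, as for 52.4%, 43.8% and 43.0% of all probe sets, so separate values are common there.

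The comparisons of *AT4G18650* without *hub1-2* gave small differences. The log2 fold change was -0.17 in *rdo2-1* against L*er* (95% interval -0.54 to 0.20, adjusted p = 0.59), 0.04 in *rdo3* against L*er* (95% interval -0.27 to 0.35, adjusted p = 0.94) and -0.21 in *rdo2-1* against *rdo3* (95% interval -0.52 to 0.096, adjusted p = 0.41). None of these passed, and all 3 intervals include 0.

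**Figure D3:**
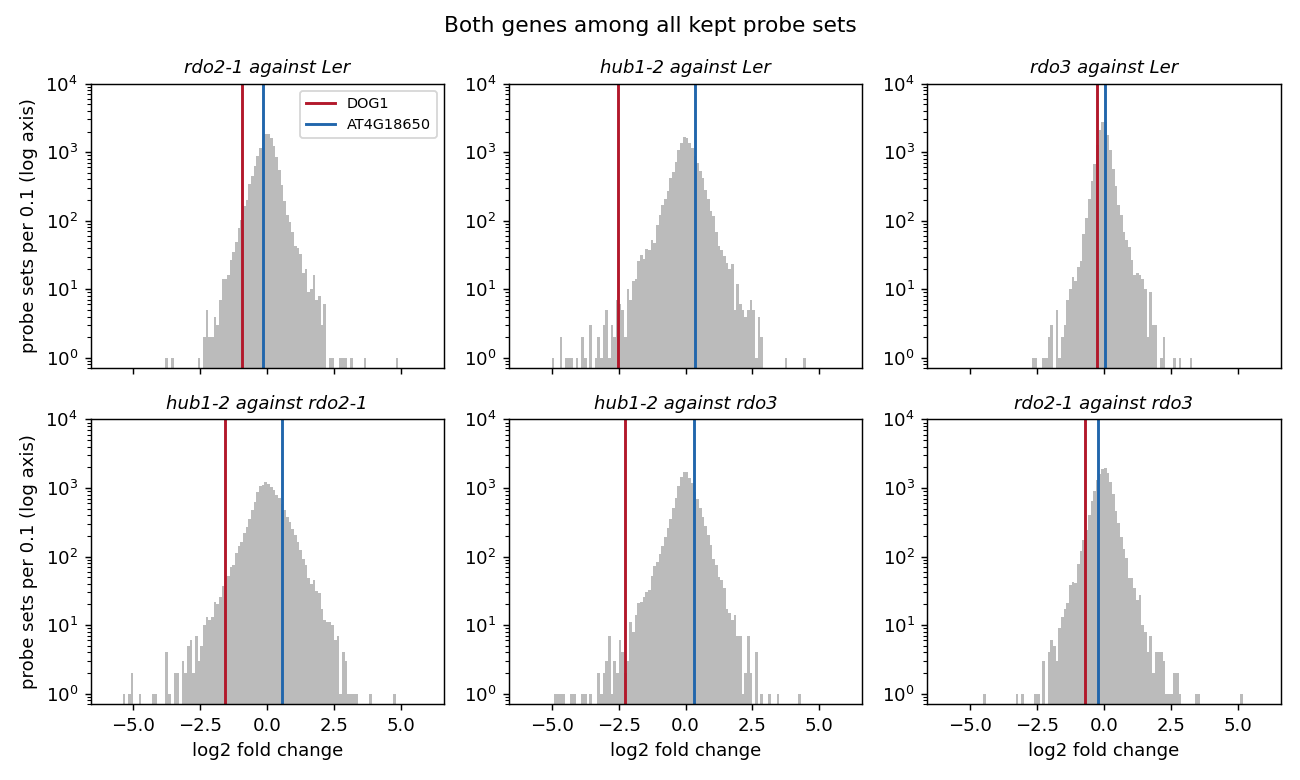
Histograms of the log2 fold changes of all kept probe sets in the 6 pairs of genotypes (bins of 0.1, counts on a log axis), with *DOG1* and *AT4G18650* as vertical lines. In *hub1-2* against L*er*, *DOG1* lies in the lower tail at -2.52, and *AT4G18650* at 0.37 lies within the bulk of probe sets.

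In *hub1-2*, *DOG1* was called lower against each other genotype, while *AT4G18650* had positive log2 fold changes that limma did not call in the fits of 6 arrays. The difference of the log2 intensities of *DOG1* and *AT4G18650* within an array does not depend on how bright that array is as a whole, and its change between genotypes compares the fold changes of the genes. Its mean was -0.37 ± 0.30 in L*er*, -0.66 ± 0.19 in *rdo3*, -1.15 ± 0.42 in *rdo2-1* and -3.26 ± 0.15 in *hub1-2*. The 4 genotypes differed in an exact permutation test (p = 0.000519, 12 arrays). Without *hub1-2*, a choice made after the values were seen, the exact permutation test over the other 3 gave p = 0.0286. The single arrays ran from -0.70 to -0.12 in L*er*, from -0.87 to -0.49 in *rdo3*, from -1.63 to -0.84 in *rdo2-1* and from -3.43 to -3.17 in *hub1-2*. Only the *hub1-2* arrays were separate from all others, since 1 *rdo3* array lay below the highest *rdo2-1* array.

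**Figure D4:**
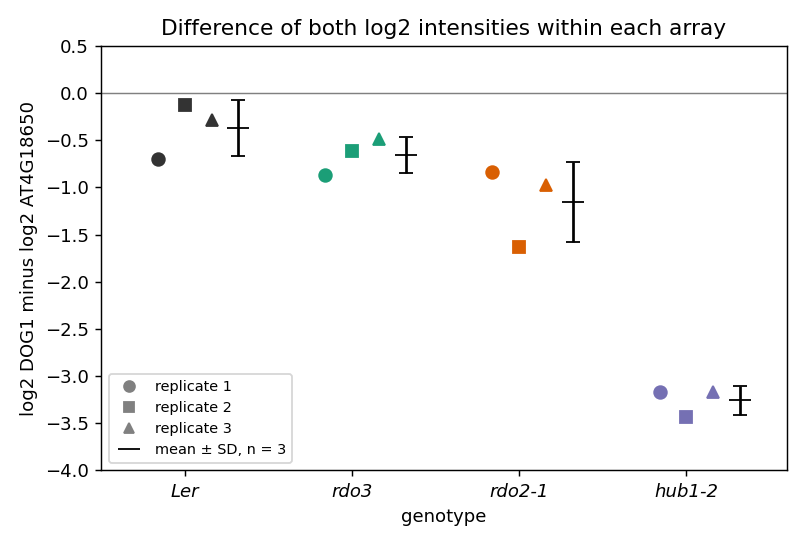
Log2 intensity of *DOG1* minus that of *AT4G18650* within each array, by genotype. Symbols are single arrays with their replicate number and bars the mean ± SD of 3 arrays. The *hub1-2* arrays lie between -3.43 and -3.17, below the other 9.

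Genes with patterns close to that of *DOG1* were looked for among the kept probe sets with 1 gene name, by Pearson's r of log2 intensity over the 12 arrays. The 12 arrays fall into 4 genotypes and are not independent points, so r is given as a description. The closest was *AT5G50315*, a pseudogene in the RefSeq annotation (r = 0.985), with an intensity of 1296 ± 149 in L*er*, 1122 ± 90.0 in *rdo3*, 792 ± 70.3 in *rdo2-1* and 391 ± 37.3 in *hub1-2*. Next came *AT3G23090*, also known as *WDL3* (r = 0.977), *AT3G02480* (0.969), *SSI2*, encoding a stearoyl-ACP desaturase of fatty acid synthesis (0.968), and *AT4G18920* (0.967). The means of *AT3G02480* were 16192 ± 1303 in L*er* and 8816 ± 352 in *hub1-2*, a narrower range than that of *DOG1*. In all 5 the *hub1-2* mean was the lowest, which follows from choosing them by r with *DOG1* over these arrays.

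At the other end stood *FUS5*, encoding a subunit of the COP9 signalosome (r = -0.970), *TAFII15*, encoding a subunit of the general transcription factor TFIID (-0.964), and *SHM3*, a serine hydroxymethyltransferase gene (-0.958). The mean intensity of *FUS5* was 175 in L*er* and 555 in *hub1-2*. *FUS5*, *TAFII15*, *SHM3* and *SSI2* owe their names here to the study's list of genes called in *hub1-2* or *rdo2-1*. The named genes searched thus include genes picked for a change in these mutants. In all, 105 probe sets had r over 0.9 with *DOG1* and 100 had r under -0.9. By Spearman's rank correlation 24 had a value over 0.9, and 1 of the 5 closest genes was the same, so the order among close genes rests on the measure.

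For *AT4G18650* the closest named genes were *AT5G18450* (r = 0.967), *ATJ1*, a DnaJ-type chaperone gene (0.957), *AT1G08710* (0.955), *AT2G29065* (0.951) and *Hsp70b*, a heat shock protein gene (0.950). *AT5G18450* had an intensity of 3149 ± 630.1 in L*er*, 3103 ± 319 in *rdo3*, 2762 ± 352 in *rdo2-1* and 3972 ± 390 in *hub1-2*. L*er* replicate 3 was low within L*er* and *hub1-2* replicate 2 was high within *hub1-2* for *AT4G18650*, and the plot of the closest genes shows the same arrays low and high for all 5. These 5 were chosen for their r over the same arrays, so this likeness follows from the choice. The means of *ATJ1* (16.7 in L*er*) and *AT1G08710* (15.6 in L*er*) lie close to the array medians. The least alike of the named genes were *FLA15*, *SLD2* and *DMP2*, with r of -0.945, -0.937 and -0.933. They and *Hsp70b* owe their names here to the study's list of called genes. The closest genes of *DOG1* and of *AT4G18650* had none in common. Since *hub1-2* was lowest for *DOG1* and highest for *AT4G18650*, the choice by r made shared genes unlikely.

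**Figure D5:**
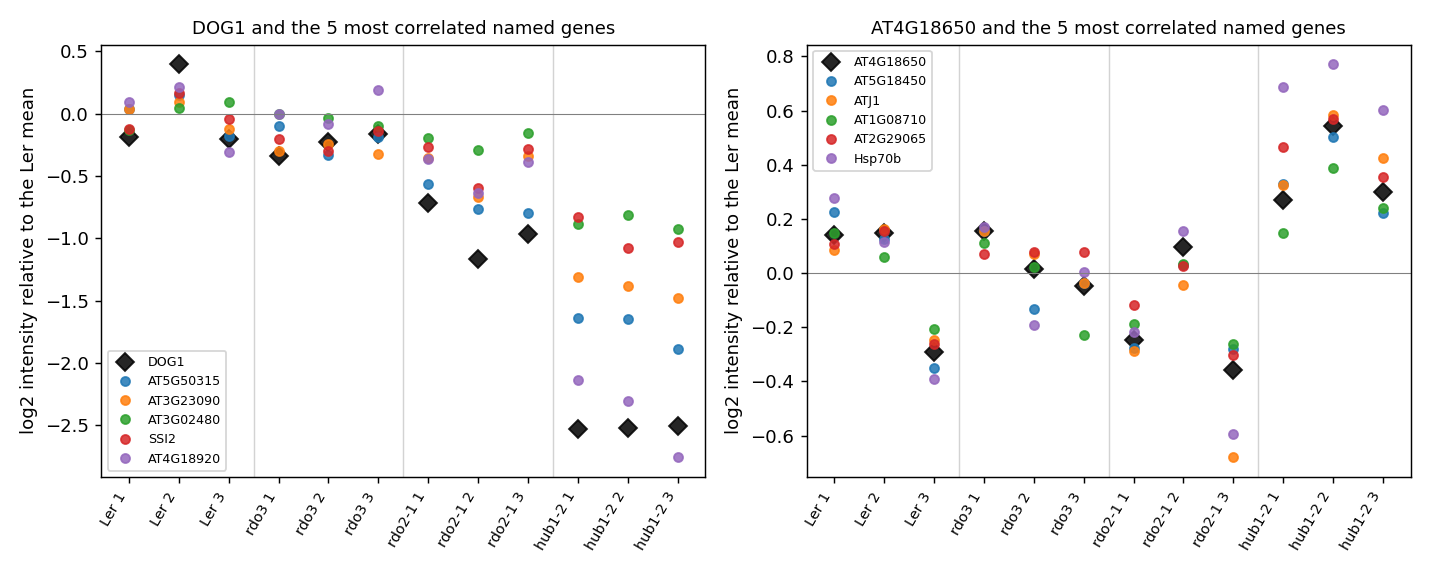
Log2 intensity relative to the L*er* mean (vertical axis) on each of the 12 arrays for *DOG1* (left) and *AT4G18650* (right), drawn as diamonds, and for the 5 named genes of highest Pearson's r with each, drawn as circles. The *DOG1* group is lowest in *hub1-2*, and the *AT4G18650* group is highest there and low on L*er* replicate 3. The genes were chosen by r over these same arrays.

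Few other genes of the *DOG1* pathway have a named probe set here. Of 15 listed genes of the DOG1 family and of TGA factors with the same domain, 5 were measured, including both members, and no measured value stands for the DOG1-like genes *AT4G18660*, *AT4G18680* and *AT4G18690*, which lie next to *AT4G18650* in the annotation. *TGA1*, a transcription factor gene of defence and redox responses, was higher in *hub1-2* than in L*er*, with an intensity of 660.4 ± 3.85 in L*er* and 907 ± 25.3 in *hub1-2* (log2 fold change 0.46, adjusted p = 0.0082). *TGA4*, its close relative, was also higher, from 17.3 ± 3.61 to 52.9 ± 9.74 (log2 fold change 1.61, adjusted p = 0.0013). *TGA10* was at 0.72 and did not pass (adjusted p = 0.018), and its L*er* mean of 11.1 was not above the array medians. In *hub1-2* against *rdo2-1*, *TGA1* (0.83), *TGA4* (1.94) and *TGA10* (1.03) were all called higher. Of all probe sets, 19.6% were called there in either direction, and 9.45% in *hub1-2* against L*er*. None of the 5 was called in *rdo2-1* or *rdo3* against L*er*, where only 0.143% and 0.0205% of all probe sets were called. The TGA genes and *DOG1* owe their names here to the study's list of genes called on these samples, so their direction is not independent evidence.

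Of 12 seed maturation regulators, among them the factors that act upstream of *DOG1*, 6 were measured. In *hub1-2* against L*er*, *bZIP67*, encoding a factor that activates *DOG1*, fell (log2 fold change -2.17, standard error 0.15, adjusted p = 1.1e-04), *EEL*, for a related bZIP factor, fell (adjusted p = 9.8e-04) from 1124 ± 85.6 to 563 ± 69.8, and *MFT*, a regulator of germination, rose (1.98, adjusted p = 1.1e-04). *FUS3*, a master regulator gene of maturation, was at -1.28 (adjusted p = 0.011) and was called lower in *hub1-2* only against *rdo2-1* (-1.05, adjusted p = 0.0066), while *WRI1*, a regulator of oil synthesis, was at -0.61 against L*er* (adjusted p = 0.024). The median of the 6 was -0.81, against 0.024 for all probe sets tested. In *rdo2-1* against L*er* all 6 had log2 fold changes under 0, with a median of -0.57 against -0.0098 for all probe sets, and in *rdo3* against L*er* all 6 were likewise under 0, with a median of -0.27 against -0.010. None was called in either, where only 0.143% and 0.0205% of all probe sets were called. In *hub1-2* against *rdo3*, *MFT* was called higher (1.99), and *bZIP67* (-1.66) and *EEL* (-0.68) were called lower. Of all probe sets, 9.45% were called in *hub1-2* against L*er*, 19.6% against *rdo2-1* and 11.2% against *rdo3*, in either direction. Of the 6 genes, 4 owe their names to the study's list of called genes, and *EEL* and *bZIP53* to the array annotation. *bZIP67* and *EEL*, like *DOG1*, had means that fell from L*er* through *rdo3* and *rdo2-1* to *hub1-2*. In this order they were 190.3 ± 16.5, 133 ± 3.31, 102 ± 50.0 and 42.3 ± 4.92 for *bZIP67*. For *EEL* they were 1124 ± 85.6, 897 ± 47.3, 776 ± 62.8 and 563 ± 69.8. Between neighbours in this order limma called neither gene, at adjusted p from 0.021 to 0.43. The other measured genes of this list did not follow the order. *FUS3* had means of 161, 126, 133 and 65.5 in the same genotypes. *WRI1* had 13.0, 11.1, 7.88 and 8.44, *bZIP53* had 1588, 1450, 1481 and 1460, and *MFT* had 91.4, 91.8, 60.3 and 361. A link of these levels with that of *DOG1* was not tested. All comparisons with L*er* share the same 3 arrays.

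Of 18 listed genes for factors of transcription and chromatin known to act on dormancy or *DOG1*, 4 were measured, all named through the study's list of called genes. *HUB1* itself had means of 78.5 in L*er*, 62.4 in *rdo3*, 41.3 in *rdo2-1* and 180.5 in *hub1-2*, and was called higher in *hub1-2* than in each of the others (log2 fold change 1.20, 1.57 and 2.13 against L*er*, *rdo3* and *rdo2-1*). Since its transcript was not lost, the level of *HUB1* is no check on the labels of these arrays. For *ELF7*, encoding a subunit of the PAF1 complex, *hub1-2* exceeded *rdo2-1* (1.07) and *rdo3* (0.92) with a call in both, *HUB2*, for the partner of HUB1, was called against *rdo2-1* (0.99), and *ATXR7*, for a histone methyltransferase, against *rdo3* (0.99), both higher in *hub1-2*. The means of *HUB2* were 9.84 in *rdo2-1*, below the array medians, and 19.4 in *hub1-2*. The median of the 4 was 0.84 in *hub1-2* against L*er*, where only *HUB1* was called, and -0.19 and -0.17 in *rdo2-1* and *rdo3* against L*er*, where none was. Of all probe sets, 9.45% were called in *hub1-2* against L*er*, 19.6% against *rdo2-1* and 11.2% against *rdo3*, in either direction. In *rdo2-1* and *rdo3* against L*er* the shares were 0.143% and 0.0205%. No gene of any pathway list was called between *rdo2-1* and *rdo3*, where only 0.252% of all probe sets were called. *RDO2*, *VIP4*, *VIP5* and *ELF8* were not analysed here.

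Of 5 genes of RNA processing factors, *FY*, for a factor of 3' end formation, and *NTR1*, for a splicing factor, were measured. *FY* was called higher in *hub1-2* than in *rdo3* (log2 fold change 0.71, adjusted p = 0.0068), and its value was 0.49 against L*er* (adjusted p = 0.064). *NTR1* was called in no comparison. Of all probe sets, 11.2% were called in *hub1-2* against *rdo3*. The 11 listed genes of phosphatases that bind DOG1 and of the abscisic acid response have no named probe set among those kept.

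Of the 5 protein coding genes on each side of *DOG1* in the annotation, 4 had a named probe set among those kept. None was called by limma in a mutant against L*er*, where 0.143% (*rdo2-1*), 9.45% (*hub1-2*) and 0.0205% (*rdo3*) of all probe sets were called. *AT5G45840*, next to *DOG1*, had a log2 fold change of -0.81 in *hub1-2* against L*er* (adjusted p = 0.017) and -0.82 in *rdo2-1* (adjusted p = 0.067), and was called lower in *hub1-2* than in *rdo3* (-0.89, adjusted p = 0.0033), at means of 9.46 in *hub1-2* and 17.6 in *rdo3* that lie below and near the array medians. *MEE62* had a log2 fold change of -0.75 in *hub1-2* against L*er* (limma adjusted p = 0.016). It was called lower in *hub1-2* than in *rdo2-1* (-0.89, adjusted p = 0.0090). *MEE62* owes its name here to the study's list of called genes, and the other measured neighbours to the array annotation. Of all probe sets, 11.2% were called in *hub1-2* against *rdo3* and 19.6% against *rdo2-1*, in either direction. None of the 10 genes around *AT4G18650* had a named probe set among those kept.

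Transcripts of seed and silique tissues were present on all arrays. Of 11 seed marker genes of storage and late embryogenesis proteins, 4 were measured, and their summed intensity was 96003 to 104294 in L*er*, 103526 to 107835 in *rdo3*, 118594 to 118800.2 in *rdo2-1* and 97971 to 107387 in *hub1-2*. The sums of *hub1-2* and L*er* overlapped, and *rdo2-1* had the highest sums. The sum hides opposite directions in *hub1-2* against L*er*. The log2 fold change was -0.20 for *SESA1* (limma adjusted p = 0.0091), -0.012 for *SESA2*, -0.0094 for *SESA4* and 0.31 for *EM6* (limma adjusted p = 0.025). Of the 4 seed genes, 1 was called lower in *hub1-2* against L*er* and 3 against *rdo2-1*, where 9.45% and 19.6% of all probe sets were called in either direction. All 4 owe their names to the study's list of genes called on these samples, so these counts are not independent evidence. *LHCA1*, the only measured of 4 genes of the green silique wall, ranged from 536 to 1051 in L*er*, from 316 to 841 in *rdo3*, from 336 to 963 in *rdo2-1* and from 213 to 415 in *hub1-2*. It was called in no comparison (limma adjusted p = 0.014, 0.053 and 0.10 in *hub1-2* against L*er*, *rdo2-1* and *rdo3*). *ALC* and *SHP2*, the measured 2 of 4 genes of the dehiscence zone, summed to 251 to 294 in L*er*, 286 to 333 in *rdo3*, 295 to 387 in *rdo2-1* and 126 to 175 in *hub1-2*, so the sums of this list were lowest in *hub1-2*. *ALC* was called lower in *hub1-2* against each of the other genotypes, and *SHP2* against both other mutants. In *hub1-2* against *rdo3*, 11.2% of all probe sets were called. *LHCA1* and *SHP2* are also named through that list, and *ALC* through the array annotation. No measured marker lay under the array median on all arrays of a genotype, and the 3 seed coat genes have no named probe set among those kept. The part of tissue composition in the levels of *DOG1* and *AT4G18650* was not tested.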

How the data were processed

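Siliques of 4 genotypes were measured on Affymetrix ATH1 arrays, 3 per genotype. The authors computed the deposited intensity values by GC-RMA (background correction, normalization between arrays, summarization of probes) in Expressionist Pro 5.1. The sources used here do not say which arrays shared 1 normalization, and the table carries no detection p-values. Genotypes were read from the sample titles. The members and gene lists were chosen with earlier results of these data known.

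Tests used log2 intensity without a pseudocount. After 64 control probe sets had been removed, probe sets were ranked by their second-highest intensity among the L*er*, *rdo2-1* and *hub1-2* arrays, and as many were kept as passed the study's own filter on detection (64.2% of those deposited). The lowest such intensity was 7.51. For each pair of genotypes, limma 3.58.1 in R 4.3.3 was fitted on 6 arrays over all kept probe sets with a prior spread that follows intensity, and p-values were adjusted by Benjamini-Hochberg over all of them, with calls under 0.01. CyberT used windows of 101 probe sets and prior weight 10. Exact permutation tests enumerated 15400 distinct assignments of the 12 arrays to the genotypes, with a smallest possible p of 6.5e-05. Those without the *hub1-2* arrays were not planned and enumerated 280 assignments, with a smallest possible p of 0.0036. The number of arrays limits the precision.

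Probe sets took their gene from the array annotation (8040 of those kept) or, failing that, from the study's list of called genes (1137), and 5478 have no name here. *DOG1* and *AT4G18650* were given by probe set. The genes named are both members, the 5 most and 3 least correlated named genes of each, called genes of the lists (at most 3 per list and comparison) and dormancy regulators that the paper names. *WRI1*, *bZIP53*, *NTR1* and the neighbours of *DOG1* were named after their values were seen. Names, exact tests and plots were made in Python 3.11.15 (pandas 2.3.3, NumPy 2.4.6, matplotlib 3.10.9).

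Alternatives were the prior without trend, all 12 arrays in the fit, no filter or a filter on the mean, median centring, quantile normalization, CyberT, a threshold of 0.05, a block for the replicate number, and leaving out single arrays.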

Additional observations from a re-analysis of the deposited data

How the results depend on the processing

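The calls of *DOG1* in *hub1-2* against L*er*, *rdo2-1* and *rdo3* held under every alternative run and with each array left out. The log2 fold change of *DOG1* in *rdo2-1* against L*er*, -0.95, passed with all 12 arrays in the fit, with CyberT and at an adjusted p under 0.05, and that against *rdo3*, -0.70, with CyberT and at 0.05. *AT4G18650* in *hub1-2* against *rdo2-1*, 0.54, passed with all 12 arrays, CyberT, 0.05 and the replicate block (adjusted p = 0.0047), and ran from 0.45 to 0.67 with each array left out. Against *rdo3*, 0.33 passed only at 0.05. *AT4G18650* in *rdo3* against L*er* ran from -0.10 to 0.12 and turned sign without L*er* replicate 3 (-0.10) and without *rdo3* replicate 1 (-0.016). Over the 4 genotypes its exact permutation p was 0.0382 with ranks and 0.0181 to 0.179 with each array left out. The causes were not tested.

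Counts of calls moved more. In *rdo2-1* against L*er*, 21 became 9 without the trend, 269 with 12 arrays, 41 after median centring, 492 with CyberT, 448 at 0.05 and 3 to 69 with an array left out. In *hub1-2* against L*er*, 1385 became 2479 with CyberT, 3526 at 0.05 and 398 to 1395 with an array left out. In *rdo3* against L*er*, 3 became 0 without the trend (1490 at an unadjusted p under 0.05), 14 with 12 arrays, 5 after centring, 144 with CyberT, 36 at 0.05 and 0 with any array left out (1064 to 2123 unadjusted). In *hub1-2* against *rdo2-1*, 2867 became 5464 at 0.05 and 1122 to 2976 with an array left out. In *hub1-2* against *rdo3*, 1644 became 2748 with CyberT, 3885 at 0.05 and 511 to 2337 with an array left out. In *rdo2-1* against *rdo3*, 37 became 232 with 12 arrays, 411 with CyberT, 334 at 0.05 and 9 to 26 with an array left out.

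By their labels, samples with the same replicate number share only a number, and whether they were handled together is not stated by the sources used here. The correlation of their deviations from the genotype means ran from -0.18 to 0.39, and in no comparison were all 3 pairs over 0.1. In *rdo2-1* against L*er* it was -0.087, 0.26 and 0.39 for replicates 1 to 3. There the limma adjusted p of *DOG1* was 0.019 with the replicate block and 0.035 without it. A shared batch was not tested. With the replicate block, calls were 185 in *rdo2-1* against L*er*, 871 in *hub1-2* against L*er*, 0 in *rdo3* against L*er* (1398 at an unadjusted p under 0.05), 970 in *hub1-2* against *rdo3* and 86 in *rdo2-1* against *rdo3*, and no other call of *DOG1* or *AT4G18650* changed. The 3 arrays per genotype limit the precision, and no detection p-values were used.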
